A study of Mus musculus with 486 samples.

Results

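The 4 transcripts described here belong to the Bcl2 family, which sets whether a cell survives or undergoes apoptosis. They are all the members of that family among the 47 gene assays of the panel, matched by assay name and Ensembl identifier: Bcl2 (ENSMUSG00000057329), Bcl2l1 (ENSMUSG00000007659, printed as BCL.XL, the anti-apoptotic product, in the deposited table), Bax (ENSMUSG00000003873) and Bad (ENSMUSG00000024959). They had been read by reverse transcription and quantitative PCR in individually sorted marrow cells of wild-type (wt) C57/Bl6 mice, with no treatment other than the sort. Common lymphoid progenitors (CLP), which still hold several lymphoid fates, fell into 3 sorted groups, Ly6d-Gfra2- (87 cells), Ly6d+Gfra2- (86) and Ly6d+Gfra2+ (82). FrA cells, an early stage of B-cell development, also fell into 3, Gfra2- Bst1- (83 cells), Gfra2+ Bst1- (83) and Gfra2+ Bst1+ (42). No source used here gives the age or the number of mice, so each sorted group counts as 1 sample, and no test between groups of single cells was possible.

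Bcl2 and Bcl2l1 (whose long product is Bcl-xL) hold back the permeabilisation of the outer mitochondrial membrane. Bax is an effector that opens this membrane once activated. Bad is a BH3-only protein that binds Bcl2 and Bcl-xL and so takes up their protective capacity. In the lymphoid lineage Bcl2 is best known for survival downstream of the interleukin-7 receptor and in mature lymphocytes, and Bcl-xL for survival of B- and T-cell precursors during receptor gene rearrangement.

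A transcript counted as detected when a cycle threshold (Ct) of at most 28 was recorded. The Ct falls as template rises, by 1 cycle for each doubling where the PCR is fully efficient. Over all 463 cells, Bax was detected in 98.5%, Bcl2 in 67.8%, Bad in 58.3% and Bcl2l1 in 55.3%. The median Ct of detecting cells was 12.90 for Bcl2, 14.02 for Bcl2l1, 12.05 for Bax and 13.81 for Bad. Only 3 Bad values, 2 Bax values, 1 Bcl2 value and 1 Bcl2l1 value lay above 18 cycles, so detection hardly turned on where the limit was set.

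The labels were checked on the transcripts of the sort genes. Gfra2 was detected in 90.5% to 93.9% of cells of the Gfra2+ groups and in 2.30% to 13.3% of the Gfra2- groups, and Bst1 in 88.1% of the Bst1+ group against 34.9% of Gfra2+ Bst1- FrA. Il7r was detected in 97.6% to 100% of cells of every group, and Pax5, a B-lineage commitment factor, in 65.9% to 97.6% of the Gfra2+ groups against 2.30% to 20.5% of the Gfra2- groups. Each plate held single cells of 1 group, so plate and group cannot be told apart. With 40 to 45 cells a plate, the mean Ct of the 3 reference assays lay between 10.78 and 12.83, that of the spike-in RNA between 6.63 and 10.08, and the mean number of genes detected per cell between 21.5 and 27.7. The number of genes was higher in all 3 Gfra2+ groups (26.1 to 27.7) than in the Gfra2- groups (21.8 to 22.4). The part of these differences in the results was not tested.

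Bcl2 was detected in most Gfra2- cells and in about as many cells as not of the Gfra2+ groups. In Ly6d-Gfra2- CLP it was found in 86.2% of cells (85.7% on plate 5 and 86.7% on plate 9), and in Ly6d+Gfra2- CLP in 77.9% (71.4% on plate 6, 84.1% on plate 7). In Ly6d+Gfra2+ CLP it was found in 43.9% (35.0% on plate 1, 52.4% on plate 10). In FrA, the shares were 83.1% of Gfra2- Bst1- cells (87.8% on plate 2, 78.6% on plate 8), 54.2% of Gfra2+ Bst1- cells (47.6% on plate 3, 61% on plate 4) and 52.4% of Gfra2+ Bst1+ cells, which came from plate 11 alone. All 6 Gfra2- plates lay above all 5 Gfra2+ plates, in both compartments. Within each of these classes, groups that followed each other in this order had 95% intervals of the difference that included 0. The step between the classes, from Ly6d+Gfra2- CLP down to Gfra2+ Bst1- FrA, was 23.7 points (9.44 to 36.7).

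**Figure D1:**
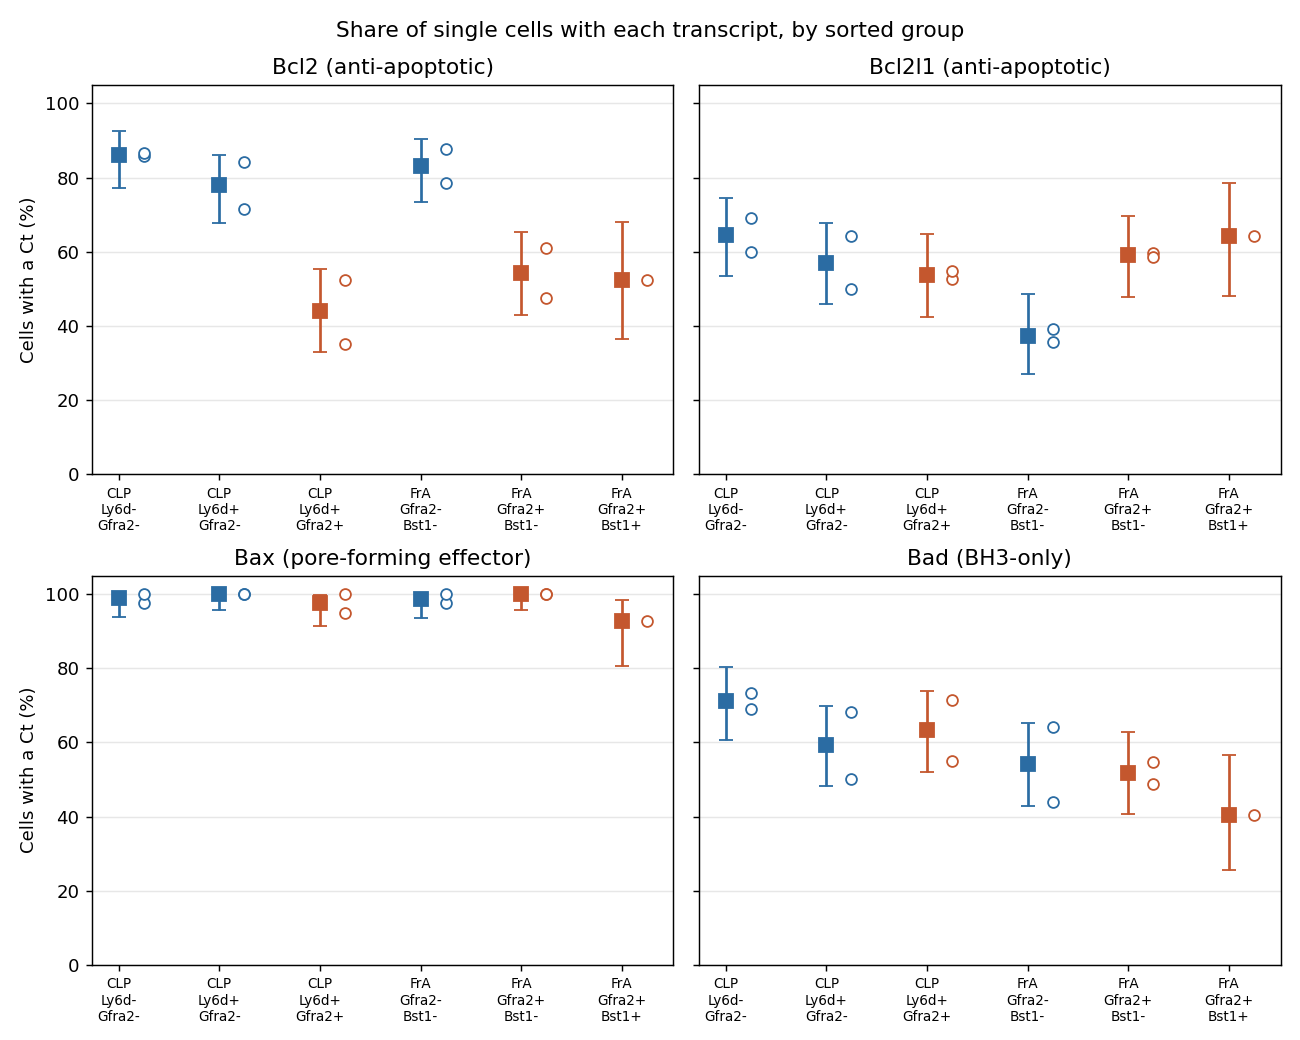
Percent of cells with a Ct for Bcl2, Bcl2l1, Bax and Bad (y axis) in the 6 sorted groups (x axis). Filled squares are groups with the exact 95% interval, open circles single plates, blue Gfra2- and orange Gfra2+. The Bcl2 plates separate by Gfra2, the lowest Bcl2l1 group is Gfra2- Bst1- FrA at 37.3%, and Bax stays at or above 92.9%.

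A difference in share was called when it reached 20 percentage points and the plates of both groups did not overlap. Beside Gfra2 in CLP, Bcl2 was detected in 34.0 points fewer Gfra2+ cells (Newcombe 95% interval of the difference -46.7 to -19.4, counting error only). This was the only member called of 4, where the rule called 15.6% of the 45 assays that were not used for sorting. Beside Gfra2 in FrA, Bcl2 was detected in 28.9 points fewer Gfra2+ cells (interval of the difference -41.4 to -14.9). There 2 of 4 members were called, Bcl2 lower and Bcl2l1 higher, where the rule called 24.4% of the assays. Of the calls over all assays, 1 of 7 in CLP and 2 of 11 in FrA were in the lower direction, so Bcl2 was the single lower call in CLP. No member was called in the other comparisons, in which the rule called 8.89% of assays for Ly6d+Gfra2- against Ly6d-Gfra2- CLP, 6.67% for Bst1+ against Bst1- among Gfra2+ FrA, 6.67% for FrA against CLP among Gfra2+ cells and 11.1% for FrA against CLP among Gfra2- cells. In these the Bcl2 share differed by -8.30, -1.84, 10.3 and 5.23 points, in the same order, each with an interval that included 0.

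Bcl2l1 did not follow the Gfra2 label in the same way. Its share was 64.4% in Ly6d-Gfra2- CLP (69% and 60.0% on plates 5 and 9), 57% in Ly6d+Gfra2- CLP (64.3% and 50.0% on plates 6 and 7) and 53.7% in Ly6d+Gfra2+ CLP (52.5% and 54.8% on plates 1 and 10). In FrA it was 37.3% in Gfra2- Bst1- cells (39.0% and 35.7% on plates 2 and 8), 59% in Gfra2+ Bst1- cells (59.5% and 58.5% on plates 3 and 4) and 64.3% in Gfra2+ Bst1+ cells on plate 11. The 2 plates of Gfra2- Bst1- FrA were the lowest of all 11, and the other 9 lay between 50.0% and 69%. Gfra2+ Bst1- FrA stood 21.7 points above Gfra2- Bst1- FrA (6.48 to 35.5). In CLP the Gfra2+ group stood 3.32 points below the Gfra2- group (-17.9 to 11.5). Gfra2- Bst1- FrA stood 19.6 points below Ly6d+Gfra2- CLP (-33.5 to -4.57), with plates that did not overlap, just short of the 20 points of the rule. It met the rule without plate 2 (-21.3 points) and without plate 7 (-26.9 points).

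Bax was near its ceiling in every group, which leaves detection little room to differ. Every cell had it in Ly6d+Gfra2- CLP and in Gfra2+ Bst1- FrA, while 98.9% of Ly6d-Gfra2- CLP had it, as did 97.6% of the Ly6d+Gfra2+ group and 98.8% of Gfra2- Bst1- FrA. The lowest share was 92.9% on the single plate of Gfra2+ Bst1+ FrA, where 3 of 42 cells had no Bax Ct. This lay 7.14 points below Gfra2+ Bst1- FrA (-19.0 to -0.70), short of the rule.

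Bad was detected in 71.3% of Ly6d-Gfra2- CLP (69% and 73.3% on plates 5 and 9), 59.3% of Ly6d+Gfra2- CLP (50.0% and 68.2% on plates 6 and 7) and 63.4% of Ly6d+Gfra2+ CLP (55% and 71.4% on plates 1 and 10). In FrA it was detected in 54.2% of Gfra2- Bst1- cells (43.9% and 64.3% on plates 2 and 8), 51.8% of Gfra2+ Bst1- cells (54.8% and 48.8% on plates 3 and 4) and 40.5% of Gfra2+ Bst1+ cells. Plates of 1 group differed by up to 20.4 points for Bad, more than any neighbouring groups in this order did, and every pair of neighbours had an interval that included 0. The difference between Ly6d+Gfra2- and Ly6d-Gfra2- CLP was -12.0 points (-25.5 to 2.20), and -21.3 points without plate 7, which met the rule. Pooled over the 6 groups, which hold different shares of cells with low and high reference Ct, Bad was detected in 74.5%, 57.7% and 44.3% of cells with low, middle and high reference Ct, cut at 11.58 and 12.40 cycles, against 77.2%, 65.8% and 63.8% for Bcl2, 61.7%, 56.4% and 49% for Bcl2l1 and 100%, 98.7% and 98% for Bax. Within a group the 3 shares of Bad did not always fall in that order, as they were 50.0%, 65.4% and 47.9% in Gfra2- Bst1- FrA and 76.2%, 54.3% and 65.2% in Ly6d+Gfra2+ CLP.

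The Bcl2 shares beside Gfra2 were also read by class of reference Ct. The share was lower in Ly6d+Gfra2+ than in Ly6d+Gfra2- CLP in each class. It was also lower in Gfra2+ Bst1- than in Gfra2- Bst1- FrA in each class. The part of input in these differences was not tested. In the cells with low, middle and high reference Ct, Bcl2 was detected in 88.2% of 17, 75% of 28 and 76.3% of 38 Ly6d+Gfra2- CLP. In Ly6d+Gfra2+ CLP the same classes gave 57.1% of 21, 45.7% of 35 and 34.8% of 23. In Gfra2- Bst1- FrA they gave 100% of 8, 88.5% of 26 and 77.1% of 48, and in Gfra2+ Bst1- FrA 69% of 29, 47.1% of 34 and 50.0% of 12. Gfra2+ Bst1+ FrA, on plate 11 alone, gave 66.7% of 15, 70% of 10 and 31.25% of 16. For Bcl2l1 the FrA difference also ran the same way in each class, at 62.5%, 38.5% and 33.3% of the Gfra2- Bst1- group against 72.4%, 55.9% and 50.0% where Gfra2 was present.

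In cells that had Bcl2, its level relative to the reference assays was also lower beside Gfra2. Levels are given as Ct minus the mean Ct of the 3 reference assays in the same cell, so that a higher value is a lower level. The Bcl2 level was 0.82 ± 1.11 cycles (SD over 75 cells) in Ly6d-Gfra2- CLP, 0.50 ± 1.16 (65 cells) in Ly6d+Gfra2- CLP and 2.21 ± 1.34 (36 cells) in Ly6d+Gfra2+ CLP. It was 0.38 ± 1.06 (68 cells) in Gfra2- Bst1- FrA, 1.42 ± 0.98 (42 cells) in Gfra2+ Bst1- FrA and 2.05 ± 1.14 (22 cells) in Gfra2+ Bst1+ FrA. By plate, the means of the Gfra2- groups ran from 0.33 to 1.05 cycles and those of the Gfra2+ groups from 1.17 to 2.22, without overlap. Single cells overlapped widely between all groups.

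**Figure D2:**
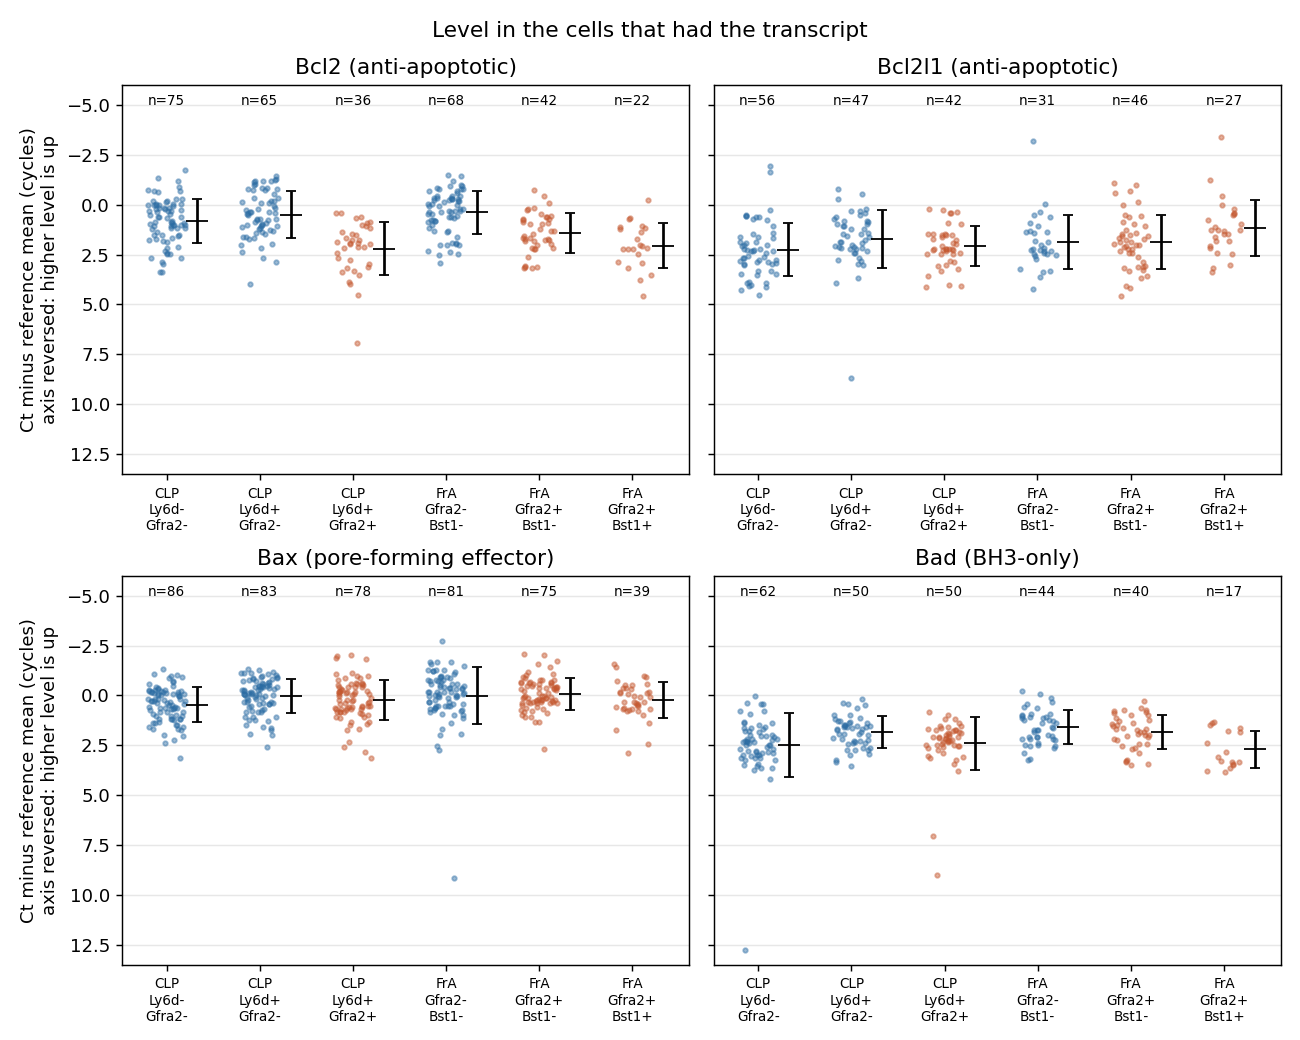
Ct minus the mean of the reference assays (y axis, in cycles, reversed so that higher levels are up) in cells with the transcript, by sorted group (x axis). Points are cells, black bars the mean and SD over cells, n the number of cells, blue Gfra2- and orange Gfra2+. The Bcl2 means of the 3 Gfra2+ groups, 1.42 to 2.21 cycles, lie below those of the 3 Gfra2- groups, and the means of the other members shift less.

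A level difference was called at 1 cycle or more with plates that did not overlap, for assays that reached 50% detection in each group compared. The Bcl2 difference beside Gfra2 in FrA, a fall of 1.03 cycles, was the only one called among the members, where the rule called 22.7% of the 22 assays it could be applied to. That call rests on the scale. The mean raw Bcl2 Ct was 13.05 ± 0.94 in Gfra2+ Bst1- FrA, against 12.96 ± 1.27 for Gfra2- Bst1- cells, a difference of -0.09 cycles, while the mean reference Ct was 11.76 in the former and 12.63 in the latter. On the raw scale it was the other members that differed there, with levels higher in Gfra2+ cells by 0.80 cycles for Bax, 0.85 for Bcl2l1 and 0.96 for Bad. The size fell short of 1 cycle without plate 8 (-0.99) and without plate 3 (-0.79). Without plate 4 it was -1.35 cycles, but under 50% of the Gfra2+ cells left had Bcl2, so the rule no longer applied. In CLP the Bcl2 difference beside Gfra2 was larger, -1.71 cycles on the reference scale and -1.33 in raw Ct, with plates apart on both. It was outside the rule because under 50% of Gfra2+ CLP had Bcl2. Its size also depended on the processing. Over the alternatives run, this CLP difference stayed negative but ranged from -5.94 to -0.49 cycles. The mean spike-in Ct of the Gfra2+ CLP plates was 6.63 on plate 1 and 10.08 on plate 10.

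The other levels moved by less than 1 cycle on the reference scale in all 6 comparisons. Outside Gfra2 in FrA the rule called no member, while it called 13.6% of assays for Ly6d in CLP, 8.70% for Gfra2 in CLP, 23.1% for Bst1, 4% for FrA against CLP among Gfra2+ cells and 9.09% among Gfra2- cells. Bcl2l1 lay between 1.72 and 2.26 cycles in 5 groups and at 1.17 ± 1.41 (27 cells) in Gfra2+ Bst1+ FrA, its highest level. Bax lay between -0.09 and 0.46 cycles, and Bad between 1.60 ± 0.85 (Gfra2- Bst1- FrA, 44 cells) at its highest level, and 2.70 ± 0.92 (Gfra2+ Bst1+ FrA, 17 cells) at its lowest. For both genes the SD over cells was larger than these gaps between most groups.

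Both transcripts of a cell come from the same lysate, so their difference was taken within each cell; its relation to input was not tested. In cells that held both, Bcl2 Ct minus Bax Ct was 0.33 ± 1.26 cycles for Ly6d-Gfra2- CLP (SD over 75 cells), 0.33 ± 1.42 for the Ly6d+Gfra2- group (67 cells) and 0.30 ± 1.83 for Gfra2- Bst1- FrA (68 cells). Where Gfra2 was present it was 1.95 ± 1.72 for CLP (36 cells), 1.39 ± 1.29 for Bst1- FrA (45 cells) and 1.92 ± 1.22 for Bst1+ FrA (21 cells). The plates separated by Gfra2, at 0.25 to 0.41 cycles against 1.24 to 2.13. The 2 compartments differed in which raw Ct moved. The raw Bcl2 level beside Gfra2 differed by -0.09 cycles in FrA and -1.33 in CLP. The raw Bax level differed by 0.80 cycles in FrA and 0.11 in CLP. The difference Bcl2 minus Bcl2l1 ran from -1.73 ± 1.76 cycles in Gfra2- Bst1- FrA, through -1.41 ± 1.52, -1.11 ± 1.48, -0.75 ± 1.52 and -0.08 ± 1.93, to 0.63 ± 1.46 in Gfra2+ Bst1+ FrA, with all 3 Gfra2- groups at the low end. Bcl2l1 minus Bad lay between -0.15 and 0.28 cycles in 5 groups and was -1.15 ± 1.95 in the 11 cells of Gfra2+ Bst1+ FrA that held both. These differences compare groups only, since assays differ in efficiency.

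Seen cell by cell, more of the Gfra2+ cells had neither anti-apoptotic transcript detected. Cells with neither Bcl2 nor Bcl2l1 made up 5.75%, 9.30% and 9.64% of the Gfra2- groups (Ly6d-Gfra2- CLP, Ly6d+Gfra2- CLP, Gfra2- Bst1- FrA). They made up 24.4% of Ly6d+Gfra2+ CLP, 22.9% of Gfra2+ Bst1- FrA and 21.4% of Gfra2+ Bst1+ FrA. The difference beside Gfra2 was 15.1 points in CLP (3.77 to 26.3) and 13.3 points in FrA (1.96 to 24.4). Cells with Bcl2l1 alone made up 31.7% of Gfra2+ against 12.8% of Gfra2- cells in Ly6d+ CLP, 18.9 points more (6.37 to 30.9), and 22.9% against 7.23% in Bst1- FrA, 15.7 points more (4.79 to 26.5). Cells with both made up 22.0% against 44.2% in CLP, and 36.1% against 30.1% in FrA. Cells with Bcl2 alone made up 22.0% against 33.7% in CLP, a difference of -11.8 points (-24.7 to 1.83), and 18.1% against 53% in FrA. Whether these differences are unlike in CLP and FrA was not tested. Intervals of these shares cover counting error only, and comparing the combinations between groups was decided after the shares were seen.

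**Figure D3:**
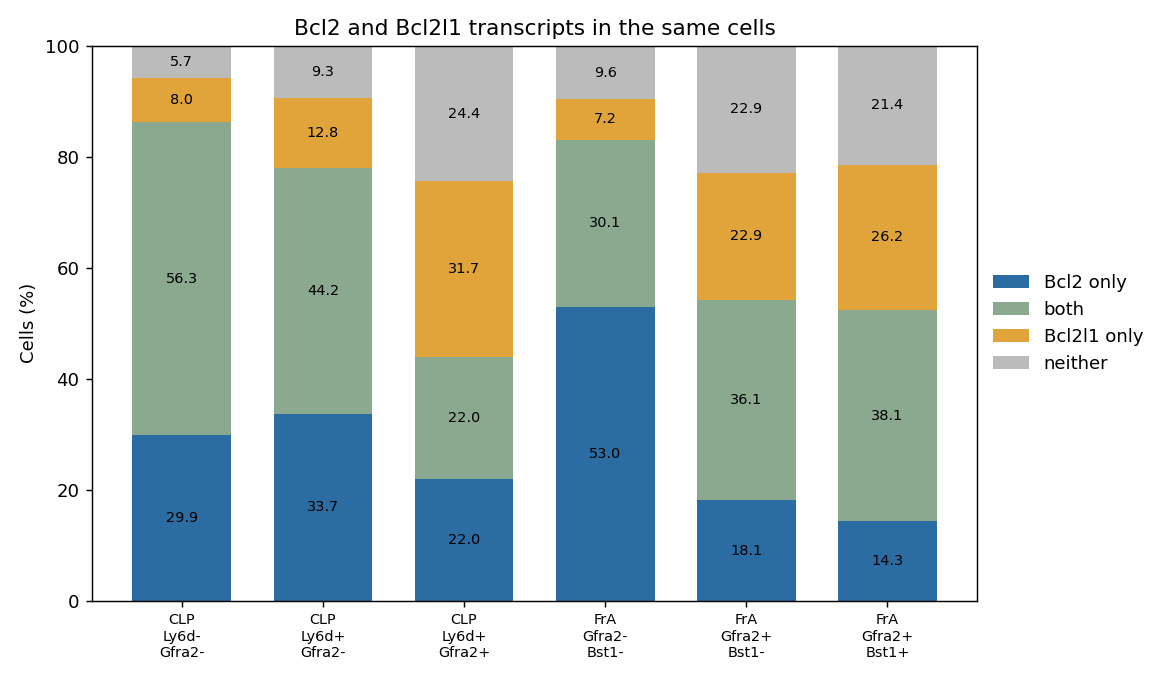
Percent of cells (y axis) with Bcl2 only, both, Bcl2l1 only or neither, stacked to 100% for each of the 6 sorted groups (x axis). Cells with neither transcript make up 5.75% to 9.64% of the Gfra2- groups and 21.4% to 24.4% of the Gfra2+ groups.

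Bcl2 and Bcl2l1 fell together in cells about as often as their shares would give. The combinations above thus follow largely from the separate shares of the 2 genes. The share of cells with both differed from the product of the shares by -1.61 to 4.42 points over the 6 groups, with phi, a correlation of presence, from -0.06 to 0.18. Bcl2 and Bad were found together 1.43 to 6.85 points more often than the product in all 6 groups (phi 0.06 to 0.28). Of 16 possible combinations of the 4 transcripts, 13 were seen. All 4 were found in 112 cells (24.2%), Bcl2, Bax and Bad in 94 (20.3%), Bax alone in 40 (8.64%) and none in 2. The mean number of members per cell was highest in Ly6d-Gfra2- CLP, 3.21 ± 0.89 (SD over cells), and lowest in Gfra2+ Bst1+ FrA, 2.50 ± 1.04.

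Within some sort gates, Bcl2 also differed between cells with and without B-lineage transcripts or Rag1, with the largest gaps in FrA. Among Gfra2- Bst1- FrA, Bcl2 was detected in 52.9% of 17 cells with Pax5 and 90.9% of 66 without it, a difference of -38.0 points (-60.5 to -15.1). It was detected there in 50.0% of 16 cells with Rag1, which cuts DNA in V(D)J recombination, and 91.0% of 67 without it, a difference of -41.0 points (-63.6 to -17.2). The Pax5 and Rag1 differences kept their direction on both plates of this group, at -71.4 and -11.3 points and at -63.8 and -24.4 points. Among Gfra2+ Bst1- FrA it was detected in 49.3% of 73 cells with Pax5 and 90.0% of 10 without it. Pooled over its 2 plates, cells with Pax5 or Rag1 in Gfra2- Bst1- FrA had Bcl2 shares close to those of the Gfra2+ groups. The 2 plates differed widely, and Bcl2 was detected in 75.6% of cells with Ebf1 in this gate. In Ly6d+Gfra2- CLP it was detected in 72.4% of cells with Rag1 and 77.8% with Ebf1. In Ly6d+Gfra2+ CLP no gap by Pax5 was measured. Bcl2 was detected there in 44.4% of 54 cells with Pax5 and 42.9% of 28 without, a difference of 1.59 points (-20.4 to 22.6). Over all 17 pairs of a gate and a transcript (Ebf1, Pax5, Pou2af1, Igll1, Rag1 or Gfra2) with at least 10 cells on each side, the Bcl2 difference was below 0 in 13, with a median of -11.6 points. Most of the 17 intervals included 0. These pairs share cells and are not independent.

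**Figure D4:**
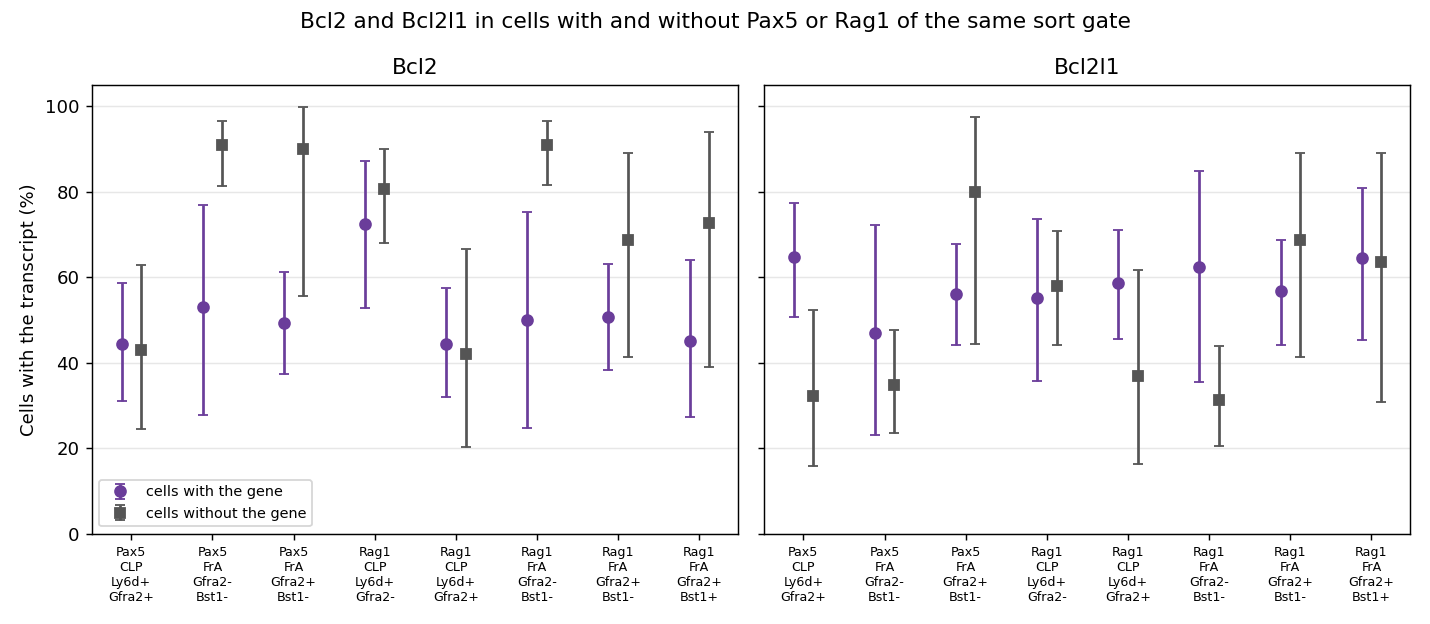
Percent of cells with Bcl2 (left) and Bcl2l1 (right) on the y axis, among cells with (purple circles) and without (grey squares) Pax5 or Rag1 in the same sort gate, named on the x axis; bars are exact 95% intervals. In Gfra2- Bst1- FrA, Bcl2 is at 50.0% to 52.9% in cells with these transcripts and at 90.9% to 91.0% in cells without them.

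Bcl2l1 more often went the other way. In Gfra2- Bst1- FrA it was detected in 62.5% of cells with Rag1 and 31.3% without (difference 31.2 points, 4.51 to 52.6), and in Ly6d+Gfra2+ CLP in 64.8% of cells with Pax5 and 32.1% without (32.7 points, 9.86 to 50.9). In Gfra2+ Bst1- FrA it ran opposite, at 56.2% of cells with Pax5 against 8 of 10 cells without. The difference was below 0 in 3 of 17 pairs, with a median of 11.8 points. For Bad the difference was below 0 in 11 of 17 pairs (median -6.74 points), and for Bax in 5, within -9.68 to 1.72 points. The mean reference Ct of cells with and without Rag1 in Gfra2- Bst1- FrA was 12.86 and 12.57.

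Wells of 10 and of 20 cells, 1 of each on 10 plates, gave a second reading of the members in other cells of the same sorts. In pooled cells, fewer cells with a transcript and less RNA per cell cannot be told apart. In the 20-cell wells, Bcl2 Ct minus the reference mean was 2.66 on plate 1 and 2.56 on plate 10 (Ly6d+Gfra2+ CLP), and 1.42 on plate 3 and 1.42 on plate 4 (Gfra2+ Bst1- FrA). In the 6 Gfra2- wells it ran from -0.27 to 1.29. In the 10-cell wells it was 4.30, 5.26, 3.12 and 1.24 on the same Gfra2+ plates, and -0.06 to 1.18 on the Gfra2- plates. Relative to the reference assays, the Gfra2+ wells lay at lower Bcl2 levels than the Gfra2- wells without overlap for both well sizes. In raw Bcl2 Ct the wells overlapped. The 20-cell wells of plates 3 and 4 had 8.92 and 8.72, against 8.12 to 9.70 on the Gfra2- plates. The 10-cell well of plate 4 had 9.12, against 8.19 to 10.96 on the Gfra2- plates.

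Averaged over both wells of a plate, the Bcl2 value was 2.75 ± 1.17 cycles (SD, n = 4 plates) for Gfra2+ and 0.61 ± 0.46 (n = 6 plates) for Gfra2-, so the level was 2.14 cycles lower. The plates come in pairs from 5 sorted groups, 2 of them Gfra2+ and 3 Gfra2-. The mean over the plates of a group was 3.69 cycles for Ly6d+Gfra2+ CLP and 1.80 for Gfra2+ Bst1- FrA, against 0.73 for Ly6d+Gfra2- CLP, 0.78 for Ly6d-Gfra2- CLP and 0.32 for Gfra2- Bst1- FrA. Both Gfra2+ groups had a higher value, that is a lower level, than all 3 Gfra2- groups. An exact permutation test over the 5 groups gave p = 0.1 (two-sided), the smallest p that 10 arrangements can give, so this design cannot reach 0.05. The same exact test gave p = 0.6 for Bcl2l1, 0.8 for Bax and 0.7 for Bad, whose levels differed by -0.23, 0.06 and -0.13 cycles and whose plates overlapped. An exact permutation test that takes plates as independent gives p-values that are too small. It covered the 21 assays with a Ct in every pooled well. It called none after Benjamini-Hochberg adjustment (0% called), and 5 had an unadjusted p under 0.05. Bcl2 was among the assays at p = 0.0048 in this test, the smallest that 210 arrangements can give. Its adjusted p was 0.05, so this floor left the adjustment little room for a call. With 2 CLP and 2 FrA plates on each side, leaving out Ly6d-Gfra2- CLP, the Bcl2 difference was -2.22 cycles. This comparison was chosen after the single-cell values were known, and the spread between plates may be technical.

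**Figure D5:**
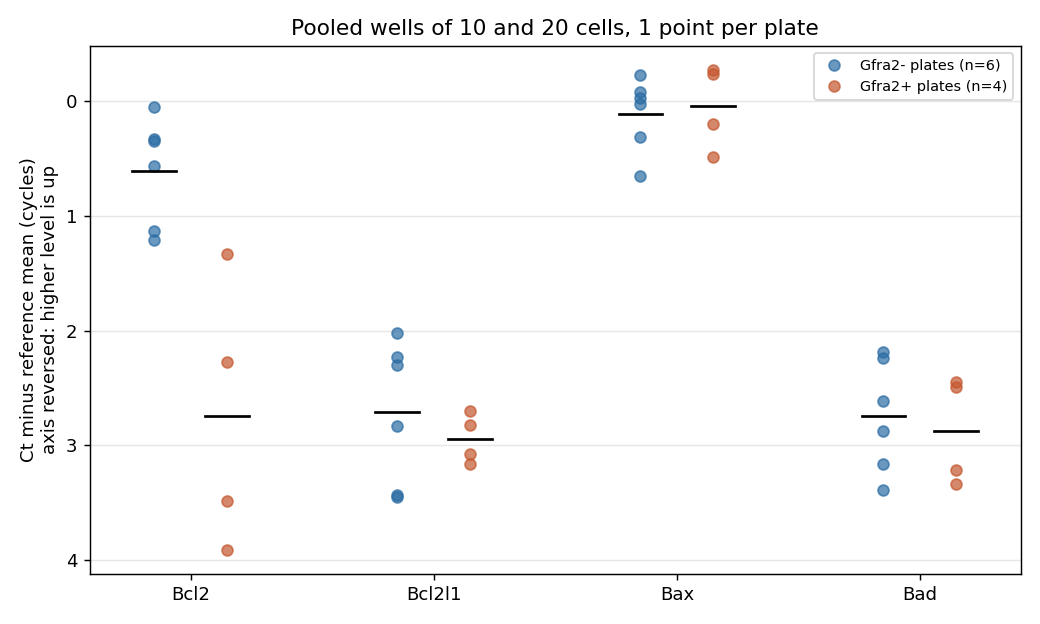
Ct minus the mean of the reference assays (y axis, in cycles, reversed so that higher levels are up) of Bcl2, Bcl2l1, Bax and Bad (x axis) in pooled wells. Each point is 1 plate, the mean of its 10-cell and 20-cell well, bars are group means, blue marks the 6 Gfra2- plates and orange the 4 Gfra2+ plates. Bcl2 is lower on every Gfra2+ plate, with means of 2.75 against 0.61 cycles, and the other members overlap.

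Doubling the cells raised all 4 members. The Ct of the 10-cell well minus that of the 20-cell well was 1.53 ± 1.41 cycles for Bcl2 (SD, n = 10 plates, higher on 10 of 10), 0.98 ± 0.93 for Bcl2l1 (9 of 10), 0.98 ± 0.73 for Bax (9 of 10) and 1.30 ± 0.87 for Bad (9 of 10). The exact sign-flip test over plates, adjusted over 28 assays, gave p = 0.0084 for Bcl2, 0.011 for Bcl2l1, 0.010 for Bax and 0.0084 for Bad. The same test called 89.3% of the assays, with a median of 1.04 cycles. Relative to the reference assays in the same wells, the difference was 0.66 cycles for Bcl2, 0.12 for Bcl2l1, 0.12 for Bax and 0.43 for Bad, with adjusted p from 0.33 to 0.84 in the exact test. The pooled Ct was set against the sum of the single cells of the same plate, scaled to the number of cells, and lay above it by a mean of 0.40 to 0.92 cycles for the members and by 0.31 to 0.79 for the reference assays.

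Other genes of survival signalling were read from a list of 22, of which 6 were on the panel. None of them met the rule for a lower share or level beside Gfra2. The nearest was Il2rb, the interleukin-2 receptor beta chain, found in 1.20% of Gfra2+ Bst1- against 20.5% of Gfra2- Bst1- FrA, a difference of -19.3 points (-29.2 to -10.3) with separated plates that was just short of 20 points; it is named here after its values were seen. Foxo1, a transcription factor that acts on Il7r and the Rag genes, was detected in 100% of Ly6d+Gfra2+ against 74.4% of Ly6d+Gfra2- CLP. Kit, which binds stem cell factor, was found in 88.0% of Gfra2+ Bst1- against 65.1% of Gfra2- Bst1- FrA. Gfra1, a co-receptor for GDNF, was detected in 83.1% against 53% of the same FrA groups, and in 61.9% of Gfra2+ Bst1+ FrA. These were the 4 detection calls of the list over the 6 comparisons. By level relative to the reference assays, Il7r, the interleukin-7 receptor alpha chain, was 1.47 cycles higher in Ly6d+Gfra2- than in Ly6d-Gfra2- CLP. Foxo1 was 1.57 cycles higher there and 1.05 cycles higher beside Gfra2 in CLP, where Bcl2 was 1.71 cycles lower. The mean reference Ct was itself 12.27 in Ly6d+Gfra2- against 11.22 in Ly6d-Gfra2- CLP. The part of this shift in the Il7r and Foxo1 differences between those groups was not tested. Ret, the signalling partner of Gfra receptors, had a Ct in 0 of 463 cells. By counting error alone, with cells taken as independent, this permits about 0.648% of cells at most. Whether the Ret assay can read its transcript was not tested.

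Over the 11 plates, the shares most unlike Bcl2 were those of Ebf1 (Spearman rho -0.89), Rag1 (-0.88) and Gfra1 (-0.88), and the most alike were Lck (0.53), Il2rb (0.53) and Mpo (0.22). Bcl2l1 was most alike to Spi1 (0.80), Kit (0.66) and Mpo (0.44), and least to Spib (-0.55), Id3 (-0.37) and Lck (-0.33). Bad was most alike to Mpo (0.56), Spi1 (0.44) and Id2 (0.32), and least to Id3 (-0.84), Bach2 (-0.82) and Spib (-0.69). Bax spanned only 7.14 points over the plates, with rho from -0.53 (Bach2) to 0.45 (Bad). For Bcl2 the positive values were thus further from 1 than the negative ones from -1. All of these describe plates that share groups, sorts and input.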

How the data were processed

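The authors deposited 1 table of Ct values, in no other unit, read from TaqMan assays on a Fluidigm BioMark chip after one-step reverse transcription and pre-amplification, per the labels' protocols. It held 48 assays (47 genes and a spike-in RNA) in 486 wells on 11 plates: 464 single cells, 10 wells of 10 cells, 10 wells of 20 cells and 2 unassigned wells. The value 40, in 46.8% of values, was read as no Ct. No source used here gives the reading software, its quality thresholds or a normalisation.

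Cells with at least 2 of 3 reference assays, Atp5a1 and Hprt among them, were kept (463 of 464). Levels used the 447 cells with all 3. Cells of a group share a sort, so groups were compared by shares with exact (Clopper-Pearson) or Newcombe 95% intervals, which cover counting error only, and by the rules given with the results. Differences were computed for all 45 gene assays not used for sorting. Pooled wells were paired by plate, since the labels put both on the same plate, and tested by exact sign-flip or permutation tests with Benjamini-Hochberg adjustment. Predicted pool values sum 2 to the power of minus Ct over the cells of a plate. Python 3.11.15, numpy 2.4.6, pandas 2.3.3, scipy 1.17.1, statsmodels 0.14.6 and matplotlib 3.10.9 were used, and the calculations were tested on simulated data.

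Named genes were the 4 members, the listed signalling genes that met a rule, and the sort and reference genes. Also named were the 3 assays most and least alike to each member over plates (among assays whose share spans at least 20 points). The others were the B-lineage transcripts, Rag1 and Gfra2 used within gates. Members, lists, rules and tests were chosen with earlier results of these data known. The alternatives were the detection limit, the cell filter, the scale of levels, the input of cells, 4 well positions, the pairing and each plate left out. No sequences are shown, because assay sequences were not analysed here.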

Additional observations from a re-analysis of the deposited data

Results flagged for a closer look

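The Bad Ct of the 20-cell well on plate 8, Gfra2- Bst1- FrA, was 12.96, the highest of the 10 such wells and apart from the rest by 0.52 of their range, above the limit of 0.47. It was 1 of 8 sets of pooled wells examined, and chance sets about 1 in 20 apart in this way.

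The Bcl2l1 share in FrA minus that in CLP was 5.38 points among Gfra2+ cells and -19.6 points among Gfra2- cells, a gap of 25.0 points between the steps. The plates moved in opposite directions without overlap, and the gap was not tested.

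Both wells on plate 8 whose titles mark them as lacking reverse transcriptase, and which entered no comparison, had Ct values for members of the family. The well at position 36 held 3 of them (Bcl2 at 12.55, Bax at 11.71 and Bad at 13.28) among 25 genes with a Ct. The well at position 30 held 4 (Bcl2 at 14.24, Bcl2l1 at 14.41, Bax at 13.00 and Bad at 12.79) among 26 genes. These lie within the range of labelled single cells, so the titles and the values disagree, and whether these wells received reverse transcriptase was not tested.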

How the results depend on the processing

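The 3 called differences in detection (Bcl2 beside Gfra2 in CLP and in FrA, Bcl2l1 beside Gfra2 in FrA) kept their direction and their call under every alternative run; with each plate left out they ranged from -42.9 to -25.5, from -35.5 to -22.2 and from 20.0 to 23.3 points. The Bcl2l1 difference between FrA and CLP among Gfra2- cells met the rule with no cell filter (-20.1 points), in the middle 50% of reference Ct (-23.8) and without 4 well positions (-21.0). The called Bcl2 level difference in FrA was lost in raw Ct (-0.092 cycles) and relative to the spike-in (-0.93), and ranged from -1.35 to -0.79 with each plate left out. Relative to the spike-in, Bax turned from -0.32 to 1.42 cycles for Bst1+ against Bst1- FrA and from 0.32 to -1.38 for FrA against CLP among Gfra2+ cells; the cause was not tested, and the spike-in itself differed between plates. Without the pairing (no replicate block), the pooled differences of 1.53 (Bcl2), 0.98 (Bcl2l1), 0.98 (Bax) and 1.30 cycles (Bad) had adjusted p of 0.064, 0.064, 0.064 and 0.050 in an exact permutation test; relative to the reference assays they were 0.66, 0.12, 0.12 and 0.43. The Bcl2 difference between pooled Gfra2+ and Gfra2- plates stayed negative (-2.81 to -1.47 cycles) in all settings added for it, which were chosen after the data were seen. The 4 well positions left out in 1 alternative held 9 labelled cells.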
